A study of Mus musculus with 33 samples.

Results

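The immediate early genes of neuronal activity were followed in brain libraries of mice with or without functional n-Tr20, the neuronal tRNA that decodes AGA as arginine. The 38 genes were taken by symbol from the annotation carried by the forebrain files, with the same gene identifiers looked up in the hippocampus files, out of 54752 genes in the forebrain and hippocampus RNA tables and 22523 in the ribosome footprint table. All 38 were present, and passed the filter on low counts, in every table. They comprised 6 AP-1 transcription factors (Fos, Fosb, Fosl2, Jun, Junb, Jund), 4 EGR zinc finger factors (Egr1 to Egr4), 3 NR4A orphan nuclear receptors (Nr4a1 to Nr4a3), 8 other transcription factors and coregulators (Npas4, Klf2, Klf4, Maff, Csrnp1, Btg2, Ier2, Ier5), 10 regulators of signalling (Dusp1, Dusp4, Dusp5, Dusp6, Rgs2, Sik1, Trib1, Gadd45b, Gadd45g, Tiparp) and 7 synaptic effectors and secreted or vascular factors (Arc, Homer1, Nptx2, Bdnf, Inhba, Ptgs2, Apold1).

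Forebrain RNA, depleted of ribosomal RNA, came from 20 mice aged 8 weeks in 5 groups of 4. B6N mice were C57BL/6NJ with wild-type n-Tr20, and B6N knockout mice were C57BL/6NJ with n-Tr20 -/-. B6J mice were C57BL/6J, which is a hypomorphic mutant for n-Tr20. B6J Tg mice were C57BL/6J carrying Tg(n-Tr20), a transgene of the B6N form, and B6J knockout mice were C57BL/6J with n-Tr20 -/-. The labels place the B6J knockouts in batch 2 and the other groups in batch 1, without saying which step the batch refers to. B6J Tg mouse 4 has a library in both batches, giving 21 libraries. From hippocampus of the same age there were 3 libraries of poly(A) RNA and 3 of ribosome footprints per genotype, B6N and B6N knockout. The headers of the hippocampus RNA files name the background as B6JN, so that background is less certain. n-Tr20 itself was not analysed here, so the genotypes rest on the labels, and p-values measure the spread between these libraries.

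Immediate early genes are transcribed within minutes of a neuron firing, without new protein synthesis, after calcium entry activates kinases that act on the factors CREB and SRF already bound at their promoters. AP-1, EGR, NR4A and NPAS4 proteins then switch on later genes, while effectors such as Arc, Homer1 and Bdnf act at the synapse and phosphatases such as Dusp1 damp the kinases. Their RNA is short-lived, so its level in a tissue depends on what the animal experienced shortly before the tissue was taken.

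CREB binds the cAMP response element, whose core is TGACG, and that core was searched on both strands in promoter windows from RefSeq (GRCm38.p6, 250 bases before to 50 bases after a start). Windows were matched for 30 of the 38 genes, and not for Egr1, Egr3, Ier2, Dusp4, Sik1, Trib1, Arc and Nptx2. Of these 30, 21 held TGACG in at least 1 window, against 23.0% of 27025 genes with a window. A gene can have more than 1 window, and by window 27 of 46 of the members' held it, against 20.8% of 32851. The full palindrome TGACGTCA, which contains the core on both strands, was found for Btg2, Dusp1 and Maff, 3 of 30, against 2.03% of all genes. The AP-1-like pattern TGANTCA, in which N was any base, was found for 2 of 30 (8.97% of all genes). The Bdnf match read TGAATCA and the Csrnp1 matches TGAGTCA. The CArG box bound by SRF was found for 2 of 30, Dusp5 and Egr2 (1.81% of all genes). All of these were searched on both strands. TATAAA, searched on the forward strand alone, was found for 6 of 30 (9.77% of all genes), Fos and Junb among them. The 200 bases just before the start follow for 5 members named below, although none of the 5 passed a forebrain comparison. The same stretch follows for the Bdnf window that held the core. All are given 5′ to 3′, with each TGACG, or CGTCA where it lies on the other strand, in capitals.
Fos: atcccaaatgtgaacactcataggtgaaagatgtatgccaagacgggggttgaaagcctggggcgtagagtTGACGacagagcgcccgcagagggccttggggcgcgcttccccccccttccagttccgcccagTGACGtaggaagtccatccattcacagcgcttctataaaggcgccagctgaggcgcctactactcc
Nr4a1: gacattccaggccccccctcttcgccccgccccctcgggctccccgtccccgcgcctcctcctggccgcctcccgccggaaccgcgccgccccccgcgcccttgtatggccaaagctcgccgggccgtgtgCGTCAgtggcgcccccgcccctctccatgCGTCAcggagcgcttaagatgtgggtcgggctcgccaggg
Junb: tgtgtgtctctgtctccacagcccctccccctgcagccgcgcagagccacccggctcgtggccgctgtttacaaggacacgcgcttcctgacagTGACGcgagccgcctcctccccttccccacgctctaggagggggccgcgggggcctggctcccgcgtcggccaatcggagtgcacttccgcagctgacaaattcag
Dusp1: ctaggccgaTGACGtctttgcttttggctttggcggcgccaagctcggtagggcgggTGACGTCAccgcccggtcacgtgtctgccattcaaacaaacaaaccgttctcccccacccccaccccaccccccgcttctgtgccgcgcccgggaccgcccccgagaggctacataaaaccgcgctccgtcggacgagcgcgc
Npas4: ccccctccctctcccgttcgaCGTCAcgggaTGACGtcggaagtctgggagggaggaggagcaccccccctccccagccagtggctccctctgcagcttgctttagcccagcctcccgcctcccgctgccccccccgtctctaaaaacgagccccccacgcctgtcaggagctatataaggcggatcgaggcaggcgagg
Bdnf: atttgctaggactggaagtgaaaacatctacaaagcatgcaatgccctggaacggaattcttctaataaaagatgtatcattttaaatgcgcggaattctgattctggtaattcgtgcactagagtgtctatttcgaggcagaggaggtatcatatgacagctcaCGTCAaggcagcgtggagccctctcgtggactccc
These stretches lie on chr12:85473690-85473889 (plus strand) for Fos, chr15:101266646-101266845 (plus) for Nr4a1, chr8:84978749-84978948 (minus) for Junb, chr17:26508473-26508672 (minus) for Dusp1, chr19:4989972-4990171 (minus) for Npas4 and chr2:109692236-109692435 (plus) for Bdnf. The Fos core nearest its start began 66 bases before it, the Nr4a1 cores 69 and 40 bases before it, and the Bdnf core 35 bases before it. Of the other members called in forebrain, Klf4 held a core only in the 50 bases of its window farthest from the start, and the Inhba window held 0. In Dusp1 the cores at 143 and 140 bases overlap to form the full palindrome. A match is a description of these letters and not evidence of binding.

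Forebrain libraries held 14699162 to 38489757 estimated counts, hippocampus RNA libraries 35825476 to 60426608 counts and footprint libraries 7616107 to 17896587 counts. By Xist and the Y-linked gene Ddx3y, B6J knockouts 1 to 3 were female and the other forebrain mice male. In hippocampus the RNA of knockout 1 was female, while its footprint library held Ddx3y at 44.2 CPM (counts scaled to a common library size), so same-numbered RNA and footprint libraries entered the tests as independent. Choroid plexus markers, summed over 12 genes, ran from 194 to 944 CPM in batch 1 forebrains and from 813 to 1074 in B6J knockouts. Hippocampus RNA held more of the 12 cortical and hippocampal excitatory neuron markers (6794 to 8571 CPM) than of the 12 striatal markers (197 to 220), as its label says. In these tissue samples fewer cells of a type and less RNA per cell cannot be told apart.

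Per transcript length, the members spanned a wide range in B6N forebrain. Homer1, a postsynaptic scaffold, stood highest at 53.7 ± 7.15 TPM (abundance per transcript length, SD, n = 4), followed by Arc at 37.8 ± 7.43 TPM, Nr4a1 at 18.8 ± 2.61 TPM and Junb at 18.6 ± 1.98 TPM. Nr4a1 and Junb did not differ beyond their spread. Fos stood at 11.6 ± 1.71 TPM, Bdnf at 3.66 ± 0.354 TPM and Npas4 at 3.17 ± 0.393 TPM, and the lowest were Klf4 at 0.780 ± 0.112 TPM and Maff at 0.366 ± 0.0289 TPM.

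Among the 4 groups of batch 1, B6N had the highest mean for 22 of the 38 members, against 23.9% of all genes, and B6J the lowest for 14, against 26.8%. Fos, the partner of Jun proteins in AP-1, showed the pattern of many of them. Its values, in CPM, were 36.3, 31.5, 37.5 and 40.4 in B6N mice 1 to 4 and 20.7, 26.0, 26.9 and 32.8 in B6N knockouts. They were 28.8, 19.7, 17.1 and 15.6 in B6J mice and 28.9, 39.7, 25.8 and 29.0 in B6J Tg mice. Every B6J mouse was below every B6N mouse, while B6N knockouts and B6J Tg mice each overlapped B6N.

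**Figure D1:**
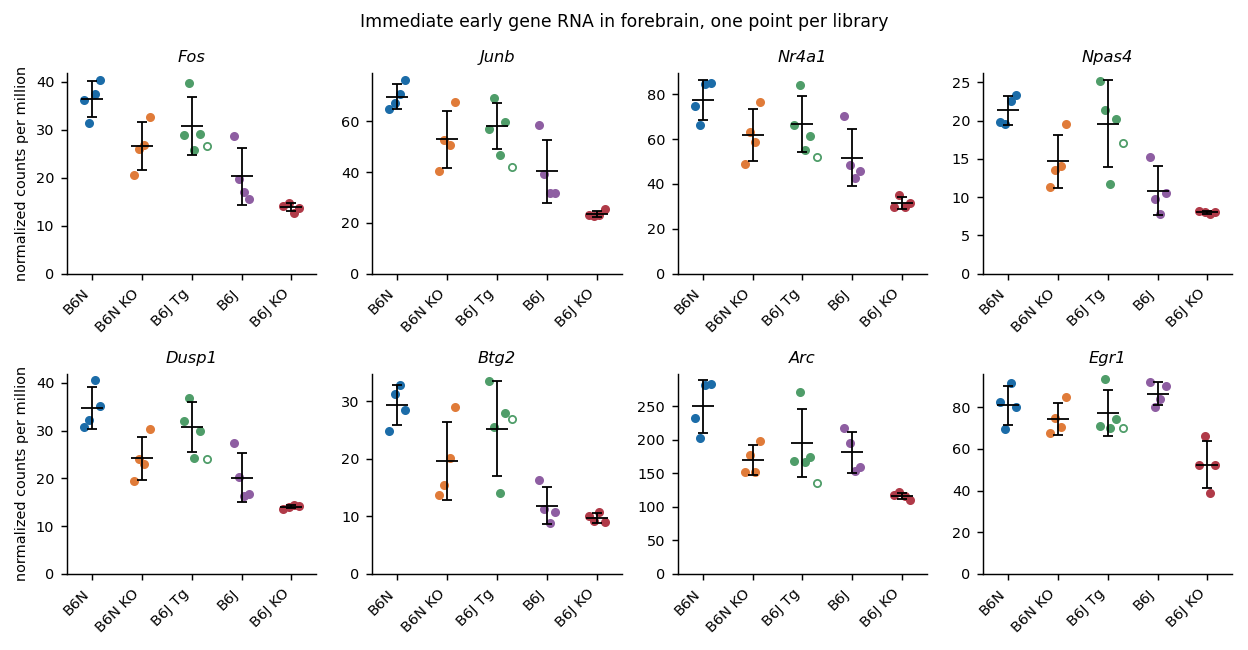
CPM (vertical axis, from 0) of 8 members in each forebrain library, by group; bars give the mean and SD of 4 mice and the open circle is the batch 2 library of B6J Tg mouse 4. B6N stands above B6J for Fos, Junb, Npas4, Dusp1 and Btg2 with no overlap, and not for Egr1.

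In B6N knockout against B6N forebrain, 1 member rose and 1 fell, where 1.11% and 0.807% of 25151 genes did so (edgeR quasi-likelihood test, adjusted p under 0.05, which is the meaning of rose and fell throughout). Bdnf, the neurotrophin that supports synapses and is released with activity, was at 20.9, 19.0, 21.7 and 20.6 CPM in B6N and 32.0, 33.1, 30.9 and 27.8 in knockouts. All 4 knockouts were above all 4 B6N mice. It rose 1.5-fold (log2 0.59 ± 0.07 SE, edgeR adjusted p = 8.37e-06). Klf4, a Krüppel-like zinc finger factor, was at 3.73, 3.45, 4.09 and 4.78 CPM in B6N and 2.2, 2.28, 1.94 and 2.77 in knockouts, again with no overlap. It fell 1.75-fold (log2 -0.80 ± 0.14 SE, edgeR adjusted p = 0.00121). Among cell type markers, 3 of 12 interneuron markers fell and 1 rose in this comparison, with sums of 660.1 to 688 CPM in knockouts and 669.9 to 737 in B6N. The striatal marker Tac1 rose, with list sums of 784 to 861 and 755 to 813. All 12 choroid plexus markers had negative differences and 0 passed, with sums of 199.8 to 664 and 207 to 475. No marker of these lists was at 0 in a whole group, and their part in the result was not tested.

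Of the 38 log2 differences in that comparison, 26 were negative and 12 positive, with a median of -0.18 against -0.001 over all genes, of which 49.5% were positive. At an unadjusted p under 0.05, 12 members were lower and 5 higher, where 6.17% and 6.5% of all genes were. Groups did not overlap for 4 members on the low side, Klf4, Dusp1, Arc and Apold1, and for 2 on the high side, Bdnf and Inhba, against 3.97% and 4.61% of all genes. By role, transcription factors other than AP-1, EGR and NR4A were negative for 7 of 8 (median -0.40) and regulators of signalling for 8 of 10 (median -0.24). Synaptic effectors and secreted factors were positive for 5 of 7 (median 0.20).

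Values of the members that did not pass overlapped in most cases, although not for Dusp1, Arc, Apold1 and Inhba. Dusp1, a phosphatase of MAP kinases, was at 30.6, 32.2, 40.6 and 35.1 CPM in B6N and 19.5, 24.1, 22.9 and 30.3 in knockouts, a log2 difference of -0.51 ± 0.18 (adjusted p = 0.23). Arc, which drives AMPA receptors out of the synapse, was at 232, 203, 282 and 283 CPM in B6N and 153, 178, 152 and 198 in knockouts (log2 -0.56 ± 0.18, adjusted p = 0.19). Fos itself differed by -0.45 ± 0.19 (adjusted p = 0.34) and Npas4, a neuron-specific factor that regulates inhibitory synapses, by -0.54 ± 0.24 (adjusted p = 0.37). Knockout 4 was the highest knockout for Dusp1, Arc, Fos and Npas4. Without it 7 members were called, Apold1, Gadd45b, Klf2, Sik1 and Trib1 joining Bdnf and Klf4, while calls over all genes went to 2.95%.

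In B6J against B6N forebrain, a comparison of substrains that also differ in n-Tr20, 2 members rose and 1 fell (1.21% and 0.513% of all genes). Inhba, a subunit of activin, was at 9.93, 12.3, 14.0 and 13.5 CPM in B6J and 9.03, 7.29, 9.49 and 7.94 in B6N, and rose 1.46-fold (log2 0.55 ± 0.11, adjusted p = 0.0045). Bdnf was at 22.9, 23.3, 28.1 and 25.6 CPM in B6J and rose 1.21-fold (log2 0.28 ± 0.07, adjusted p = 0.0483). Ier2, a nuclear factor induced by growth factors, was at 3.88, 3.55, 2.91 and 2.06 CPM in B6J and 4.25, 5.52, 5.73 and 5.32 in B6N, and fell 1.66-fold (log2 -0.73 ± 0.17, adjusted p = 0.0214). For all 3 genes the groups did not overlap. With transcript lengths as an offset all 3 lost their calls (adjusted p = 0.0544 for Inhba, 0.176 for Bdnf and 0.0544 for Ier2) and Fos alone was called, where 0.569% of all genes were. Bdnf also lost its call with RLE scaling (adjusted p = 0.0524) and without any 1 of B6N mice 1, 2, 3 or 4 or B6J mice 2, 3 or 4 (adjusted p 0.057 to 0.18), and Ier2 without B6N mouse 2, 3 or 4 or B6J mouse 3 or 4 (0.06 to 0.087).

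Other members lay just short of the threshold. At an unadjusted p under 0.05, 20 were lower and 6 higher, against 5.64% and 7.15% of all genes, and groups did not overlap for 8 on the low side and 6 on the high side, against 3.77% and 5.29%. The median log2 difference was -0.29, against -0.0003 over all genes, and 14 members and 49.9% of all genes were positive. Btg2, an antiproliferative coregulator, was at 24.8, 31.2, 32.9 and 28.5 CPM in B6N and 16.4, 11.3, 8.87 and 10.8 in B6J (log2 -1.29 ± 0.30, adjusted p = 0.053). Npas4 was at 19.9, 19.6, 22.6 and 23.4 in B6N and 15.3, 9.76, 7.76 and 10.54 in B6J (log2 -0.96 ± 0.25, adjusted p = 0.088). Fos differed by -0.83 ± 0.20 (adjusted p = 0.060), Junb by -0.78 ± 0.20 (0.083) and Dusp1 by -0.77 ± 0.19 (0.062).

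Not every member was lower in B6J. Egr1, the EGR factor most used as an activity reporter, was at 82.3, 69.3, 91.5 and 80.0 CPM in B6N and 92.1, 80.1, 84.0 and 89.9 in B6J, which overlapped (log2 0.10 ± 0.11, adjusted p = 0.79). Within its family Egr2 differed by -0.75 ± 0.27 (adjusted p = 0.24), Egr3 by 0.20 ± 0.12 and Egr4 by 0.09 ± 0.20. Among AP-1 genes Fosb was at 7.73 to 9.50 CPM in B6N and 7.89 to 9.49 in B6J, and among effectors Homer1 was at 225 to 283 and 246 to 315. B6J mouse 1 was the highest of its group for Fos, Junb, Nr4a1, Npas4, Btg2 and Dusp1, and held 944 CPM of choroid plexus markers where the other 3 held 194 to 212, whose part in the result was not tested. Without that mouse 8 members were called (1.67% of all genes), and DESeq2 called 12 (3.79%). The striatal markers moved with this comparison as well, summing to 891 to 1017 CPM in B6J and 755 to 813 in B6N, with 4 of 12 called higher. Of 12 interneuron markers 2 rose, with sums of 738 to 792 in B6J and 669.9 to 737 in B6N, and of 13 mural and meningeal markers 2 fell, with sums of 187 to 205 and 209.8 to 235. No marker of these lists was at 0 in a whole group, and their part in the result was not tested.

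**Figure D2:**
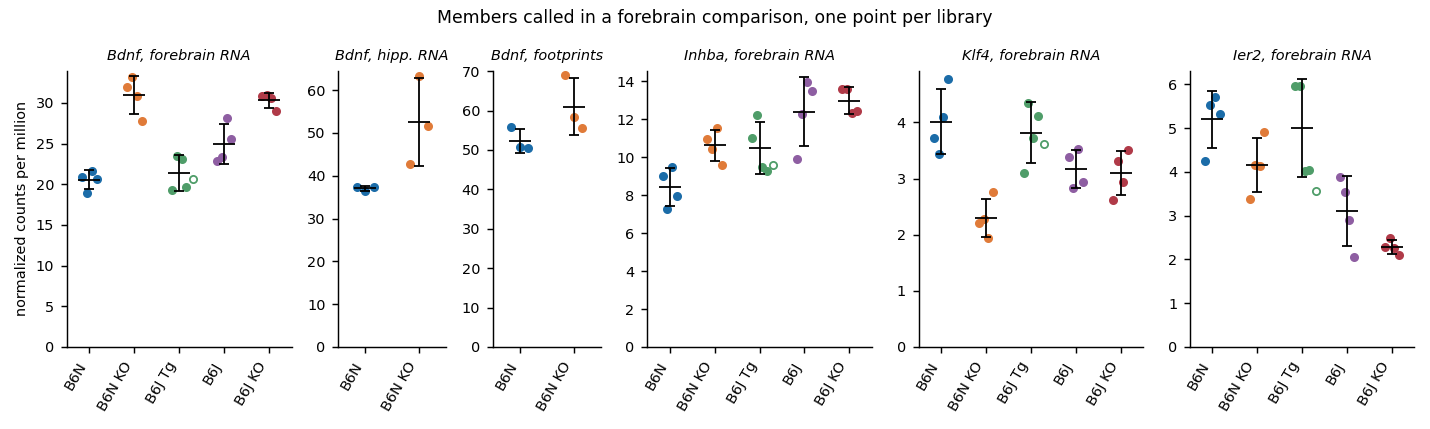
CPM (vertical axis, from 0) of Bdnf in forebrain RNA, hippocampus RNA and footprints, and of Inhba, Klf4 and Ier2 in forebrain RNA, with the mean and SD of each group; the open circle is the batch 2 library of B6J Tg mouse 4. Bdnf is higher in both forebrain knockout groups than in B6N and B6J Tg with no overlap.

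Within the B6J substrain, B6J against B6J Tg compares low with restored n-Tr20. No member passed (0.250% of 25151 genes did), with 7 members lower and 6 higher at an unadjusted p under 0.05 (4.95% and 5.35% of all genes) and 2 called by DESeq2, Btg2 and Npas4 (1.75% of all genes). The median log2 difference was -0.08. Npas4 was at 25.2, 21.3, 11.7 and 20.2 CPM in B6J Tg, so that Tg mouse 3 lay inside the B6J range (log2 -0.82 ± 0.26, adjusted p = 0.25). Bdnf was at 19.3, 23.5, 23.1 and 19.7 CPM in B6J Tg and overlapped B6J (log2 0.22 ± 0.07, adjusted p = 0.25). B6J Tg against B6N, substrains that both have functional n-Tr20, gave no called member either (0.366% of all genes), with 4 members lower and 2 higher at an unadjusted p under 0.05 (3.65% and 5.21%) and 0 called by DESeq2. Bdnf differed there by 0.06 ± 0.07 and Fos by -0.25 ± 0.19. These comparisons share groups with those above. In B6J against B6J Tg 11 of 12 choroid plexus, 1 of 13 thalamus and hypothalamus and 0 of 10 oligodendrocyte markers had positive differences, with 0 called. In B6J Tg against B6N these were 0 of 12, 12 of 13 and 10 of 10, with 0 called, and 2 of 12 interneuron markers rose. Tg mouse 3 had the lowest excitatory neuron marker sum of batch 1 (1970 CPM) and the highest thalamus and hypothalamus sum (316 CPM). The part of these markers was not tested.

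Whether n-Tr20 loss on B6N differed from low n-Tr20 on B6J was tested as a contrast. No member passed (0.0596% of all genes), and 2 were higher and 3 lower at an unadjusted p under 0.05 (4.04% and 4.16%), with 0 called by DESeq2. For Bdnf the difference of effects was 0.37 ± 0.10 (adjusted p = 0.22), and for Klf4 it was -0.54 ± 0.21 (adjusted p = 0.43).

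In B6J knockouts Fos was at 14.2, 14.7, 12.7 and 13.7 CPM, below every other forebrain library, as were Junb, Jund, Egr1, Egr2, Egr4, Nr4a1, Nr4a3, Csrnp1, Dusp1, Trib1 and Arc. These 12 of 38 members compare with 0.970% of all genes below every other library, and 0 members and 1.09% of all genes were above. Npas4 was at 8.21, 8.04, 7.80 and 8.01. Arc was at 117, 121, 116 and 110, and Dusp1 at 13.6, 14.1, 14.4 and 14.2. The knockouts lay close together for Npas4, with an SD of 0.164 around a mean of 8.02, where the batch 1 groups had SDs of 1.92 to 5.71. The comparison with other groups rests on B6J Tg mouse 4, the only mouse in both batches, whose batch 2 library was lower than its batch 1 library for 31 of 38 members (median log2 -0.16, against -0.01 over all genes). Within batch 2, all 4 knockouts lay below that mouse's library for 24 members (23.8% of all genes) and above it for 9 (24.7%). Fos was at 29.0 and 26.7 CPM in the batch 1 and batch 2 libraries of that mouse, and Junb at 59.6 and 41.9.

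With that batch difference fitted, no member passed in B6J knockout against B6J Tg (0.738% of 25481 genes did), and 8 were lower and 4 higher at an unadjusted p under 0.05 (5.07% and 6.57%), with 0 called by DESeq2. Fos differed by -1.02 ± 0.36 (adjusted p = 0.26), Btg2 by -1.31 ± 0.51 (0.31) and Npas4 by -1.04 ± 0.44 (0.37). Dusp4, a nuclear MAP kinase phosphatase, differed by 0.70 ± 0.19 (0.077) and Bdnf by 0.44 ± 0.14 (0.15). With no batch term 23 members and 14.3% of all genes were called, so batch and group cannot be told apart beyond what 1 mouse's pair of libraries allows. Against B6J no member passed (0.106%), and 0 were higher and 1 lower at an unadjusted p under 0.05 (4.64% and 3.38%), with 0 called by DESeq2 and 14 without a batch term (13% of all genes). Against the knockout effect on B6N the difference of effects passed for no member (0.243% of all genes), with 3 higher and 3 lower at an unadjusted p under 0.05 (5.71% and 4.39%), 0 called by DESeq2 and 2 without a batch term (2.58% of all genes). Bdnf, at 30.8, 31.0, 30.5 and 29.0 CPM, lay in the range of the B6N knockouts, and the difference between the effects was -0.15 ± 0.15 (adjusted p = 0.80). Beside these values, 3 of the 4 B6J knockouts were female and all 4 held more choroid plexus marker RNA than any B6J Tg library (214 to 289 CPM), with no marker at 0 in a group. Against B6J Tg, 0 of 10 oligodendrocyte markers and 5 of 5 blood markers had positive differences, with 0 called. Their part in the results was not tested, and no member passed among male libraries alone, where the 1 male B6J knockout is assumed to vary like the other groups.

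**Figure D3:**
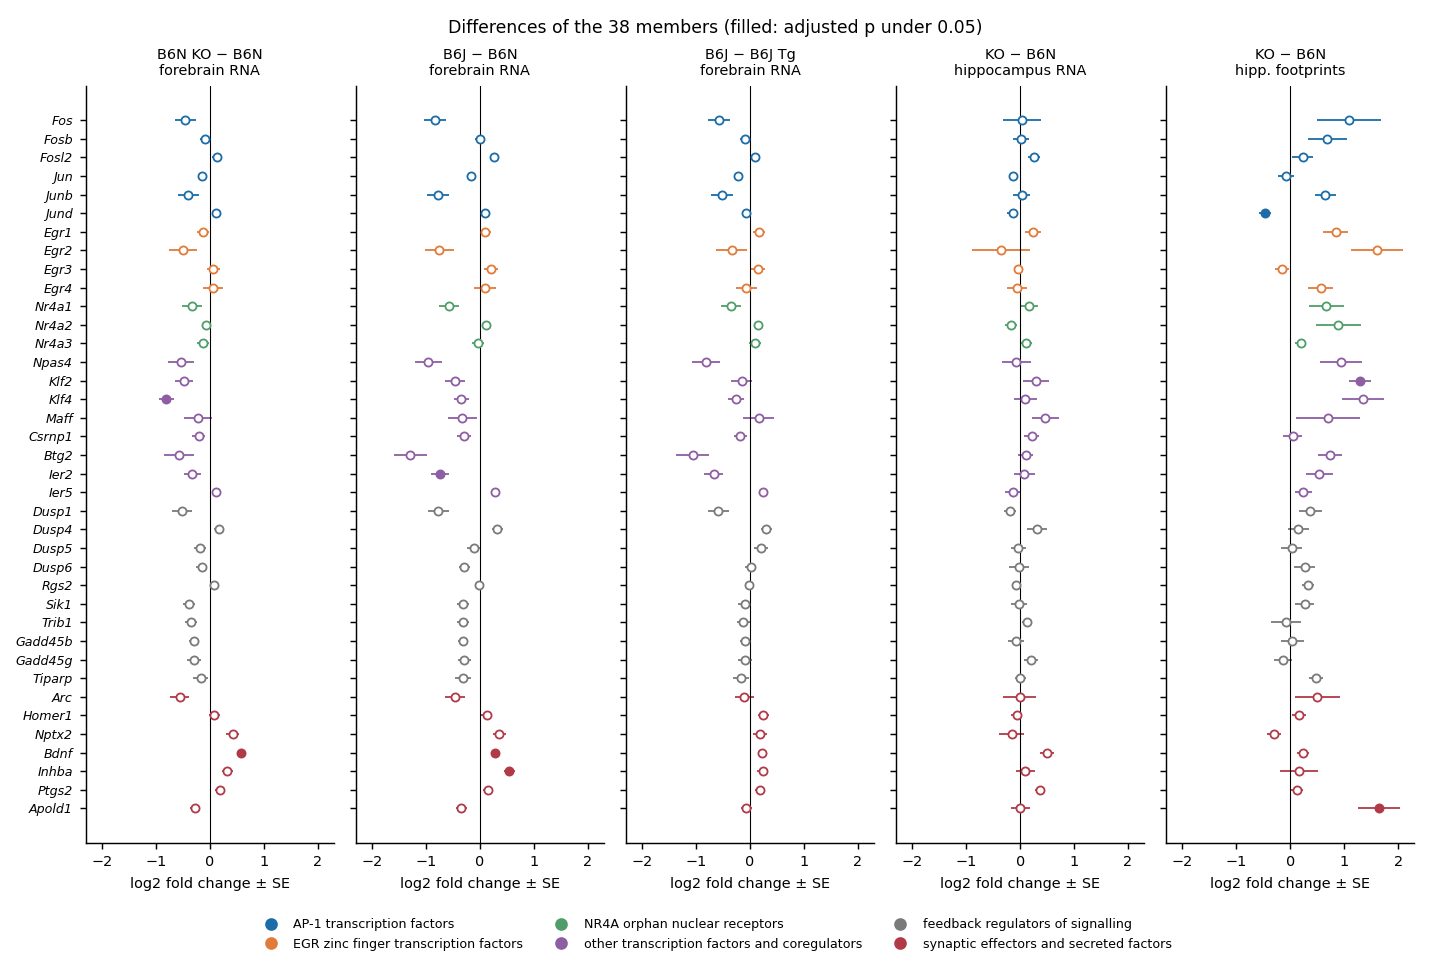
Log2 fold change with SE (horizontal axis) of each of the 38 members, coloured by role, in 3 forebrain and 2 hippocampus comparisons; filled points passed an adjusted p under 0.05. Most points lie left of 0 in the B6N knockout and B6J against B6N panels (26 and 24 of 38) and right of 0 for footprints (32 of 38).

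The spread between mice of a group was wider for these genes than for most. The biological coefficient of variation, the relative SD that remains after counting error, had a median of 9.63% over members and 7.87% over all genes in forebrain, and 28 of 38 members were above the trend for their expression level, against 23.6% of all genes. Btg2 (25.8%), Egr2 (23.8%) and Npas4 (22.0%) varied most. Rgs2, an inhibitor of G protein signalling, varied least (4.71%), with all 21 libraries between 37.5 and 44.8 CPM, followed by Jun (5.31%) and Jund (6.21%). In footprints and hippocampus RNA, Egr2 was at 38.98% and 45.3%, Npas4 at 32.5% and 23.8%, and Btg2 at 16.9% and 14.1%. Fos was widest of the members in footprints, at 49.7%.

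Part of the members went up and down with Fos from mouse to mouse, as read before adjustment over all genes. With group means removed, 18 of the 37 other members correlated positively with Fos over 20 mice at a permutation p under 0.05, and 0 negatively, where 3.15% of 25455 genes did in each direction. No gene passed after adjustment over all genes, and the smallest p that 100000 permutations can give is 1e-05. Nr4a1, an orphan nuclear receptor, followed Fos most closely (Pearson r = 0.945, permutation p = 2e-05, Spearman rho = 0.883, permutation p = 8e-05, adjusted p over all genes 0.43). Junb (r = 0.930, rho = 0.746) and Dusp1 (r = 0.887, rho = 0.725) came next, with permutation p of 0.00013 and 0.00026 for r. Arc (r = 0.840), Dusp6 (0.805), Egr2 (0.800) and Trib1 (0.795) were also high. An r above 0.7 was found for 12 of 37 members and for 0.173% of all genes.

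Other members did not follow Fos. Bdnf had r = -0.249 (permutation p = 0.437), Homer1 -0.129 and Inhba -0.205, and the lowest were Nptx2, a secreted pentraxin that gathers AMPA receptors, at -0.265 and Maff at -0.334 (permutation p = 0.294). Egr3 had r = 0.022 although Egr1, Egr2 and Egr4 had 0.568, 0.800 and 0.706. Leaving out the 2 mice with Fos farthest from the median, B6J mouse 1 and B6J Tg mouse 2, gave 0.899 for Nr4a1, 0.883 for Junb, 0.812 for Dusp1 and 0.779 for Arc, and within the 16 mice of batch 1 the values were 0.957, 0.952, 0.906 and 0.847. Outside the list, Bmp2k had the highest r with Fos (0.824), and Zfp36l1 and Cyr61, both known as rapidly induced genes, had 0.759 and 0.724. Of the 11 cell type marker sums, none correlated with Fos past an adjusted permutation p of 0.05 over the 11 (lowest 0.713). The choroid plexus sum had r = 0.428 (permutation p = 0.226, rho = 0.170), and 0.134 without the same 2 mice. The sum of cortical and hippocampal excitatory neuron markers had r = 0.337 (permutation p = 0.167) and the highest rank correlation, rho = 0.468 (permutation p = 0.0475, not adjusted), with r = 0.377 without those mice.

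**Figure D4:**
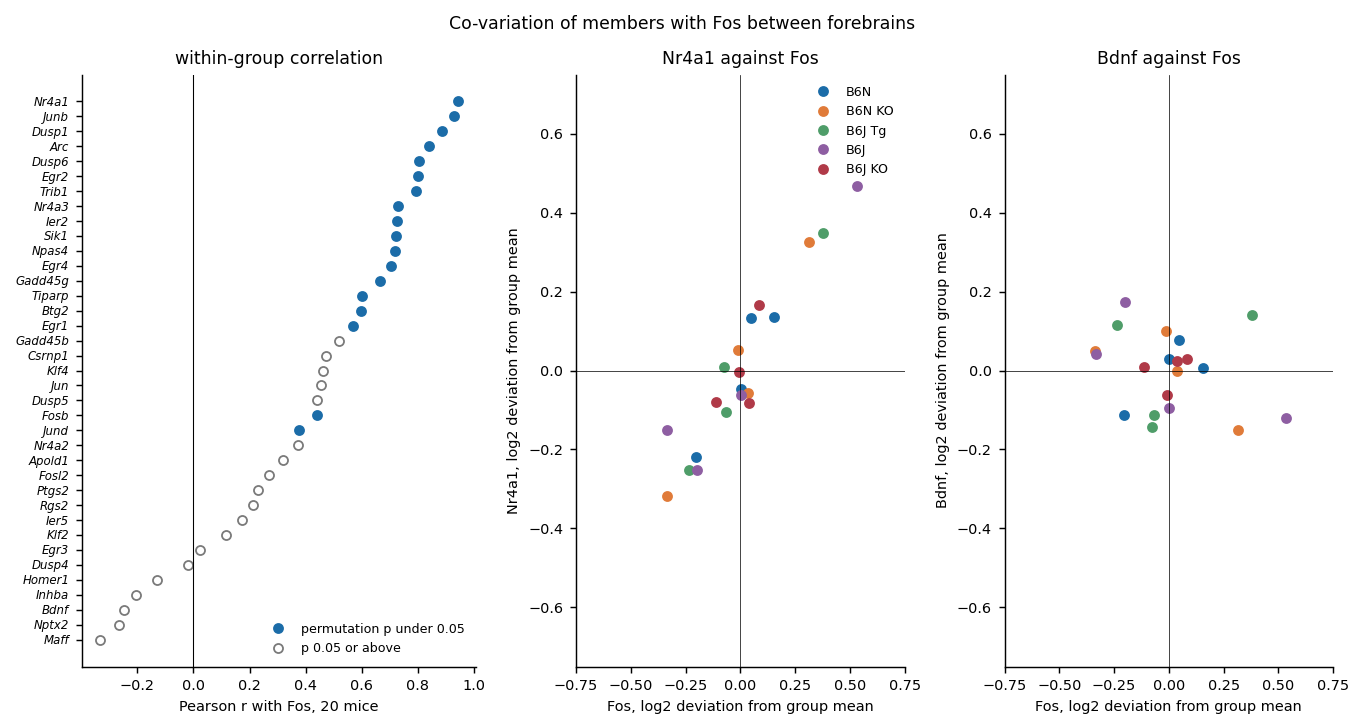
Left, Pearson r of each other member with Fos over 20 mice after removal of group means (horizontal axis), filled where the permutation p is under 0.05; middle and right, log2 deviations from the group mean of Nr4a1 and Bdnf against Fos, 1 point per mouse. Nr4a1 rises with Fos (r = 0.945) and Bdnf does not (r = -0.249).

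The rise of Bdnf in B6N knockout forebrain could be divided over 11 annotated transcripts, which share their coding exon and differ mainly in the first exon, so that the split is an estimate. Bdnf-201 was at 2.52 ± 0.466 CPM in B6N and 4.80 ± 1.54 in knockouts (SD, n = 4 each), Bdnf-205 at 4.78 ± 1.76 and 6.996 ± 0.783, and Bdnf-209 at 5.73 ± 1.18 and 7.94 ± 2.39. The groups overlapped for each of these 3 transcripts, while they did not for the gene. Homer1-205, picked after its values were seen and not tested, was at 12.1 to 15.6 CPM in B6N and 8.59 to 10.45 in knockouts, which did not overlap. The other groups also lay below B6N, so this was not particular to knockouts. B6J was at 7.42 to 9.31, B6J Tg at 8.05 to 11.6 and B6J knockouts, in batch 2, at 6.25 to 10.1. The largest share of Homer1 was on Homer1-204, at 101 ± 19.2 CPM in B6N and 109 ± 13.4 in knockouts.

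Genes around the module were read from lists beside it. These lists were drawn up with earlier results of these data known, so their counts are a description and not independent support. Of 25 upstream regulators (kinases, CREB, SRF and their cofactors), 0 rose and 1 fell in B6N knockout forebrain (1.11% and 0.807% of all genes). It was Mapk3, which encodes the kinase ERK1 (log2 -0.38 ± 0.06, edgeR adjusted p = 0.000664). In B6J against B6N and in B6J against B6J Tg 0 passed. Of 38 tested among 40 other activity-regulated genes, 6 rose and 1 fell in B6N knockouts, against the same shares of all genes. Tac1, also on the striatal list, was among the 6. The neuropeptide gene Cort rose 2.41-fold, Adcyap1, which encodes PACAP, 1.73-fold and Vgf 1.49-fold, and Fosl1, another AP-1 gene, fell 1.42-fold. In B6J against B6N 5 of these 38 rose and 0 fell (1.21% and 0.513% of all genes), with Cort at 2.01-fold and Vgf at 1.39-fold. In hippocampus RNA 1 of 38 tested rose, Cort, and 0 fell, where 0.0413% of all genes were called, and 0 upstream regulators passed. In footprints 7 of 37 tested rose and 2 fell (2.19% and 3.16% of all genes), Tac1 and Penk of the striatal list among the 7. There 2 of 25 upstream regulators fell, Crtc1 and Elk1.

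In hippocampus RNA no member passed (0.0413% of 19352 genes did), with 3 higher and 0 lower at an unadjusted p under 0.05 (3.32% and 4.62% of all genes) and 2 called by DESeq2, Bdnf and Ptgs2 (0.808% of all genes). Bdnf was at 37.4, 36.3 and 37.4 CPM in B6N and 42.8, 63.2 and 51.6 in knockouts, with no overlap (log2 0.50 ± 0.13, adjusted p = 0.38). Ptgs2, the inducible cyclooxygenase, differed by 0.36 ± 0.08 (adjusted p = 0.33), also with no overlap. The only other member without overlap was Trib1, making 3 on the high side and 0 on the low side (7% and 7.4% of all genes). Fos was at 8.65, 4.02 and 4.74 CPM in B6N and 4.87, 8.20 and 4.74 in knockouts, and Klf4 at 3.22, 3.94 and 4.98 and at 5.42, 3.29 and 4.25, which overlapped. The median log2 difference was 0.01, with 21 members positive and 17 negative, where 50.9% of all genes were positive. Choroid plexus marker sums varied within both groups, from 329.7 to 4505 CPM in B6N and from 279 to 6621 in knockouts, with all 12 differences positive and 0 called. Interneuron marker sums did not overlap, at 997 to 1116 in B6N and 856 to 883 in knockouts, with 11 of 12 differences negative and 1 called, Ndnf. All 10 oligodendrocyte markers (sums of 5701 to 7856 and 4781 to 5813) and all 10 microglial markers (376 to 416 and 349 to 382) had negative differences, with 0 called. No marker of these lists was at 0 in a whole group, and their part in these values was not tested.

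In footprints, the RNA stretches that ribosomes shield from nuclease, 2 members rose and 1 fell in knockouts (2.19% and 3.16% of 13227 genes). Klf2, a Krüppel-like factor prominent in endothelium, was at 13.1, 12.6 and 8.01 CPM in B6N and 33.3, 24.6 and 23.5 in knockouts, and rose 2.44-fold (log2 1.29 ± 0.20, adjusted p = 0.00768). Apold1, an endothelial early response gene, was at 1.69, 1.63 and 0.712 and at 3.97, 3.82 and 4.69, and rose 3.11-fold (log2 1.64 ± 0.39, adjusted p = 0.0292), from 8 to 69 counts per library. Jund, an AP-1 subunit, was at 78.3, 85.0 and 101 and at 60.9, 66.6 and 64.3, and fell 1.38-fold (log2 -0.47 ± 0.11, adjusted p = 0.0268). Groups did not overlap for any of the 3. Klf2 lost its call without B6N footprint library 3 (adjusted p = 0.052), Apold1 without B6N library 2 or 3 or knockout library 2 or 3 (0.063 to 0.16), and Jund without B6N library 2 or 3 or knockout library 1 or 2 (0.065 to 0.17). DESeq2 called 7 members (9.56% of all genes), Klf2 and Jund among them, and gave no adjusted p for Apold1.

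Across the module 32 of 38 log2 differences in footprints were positive, with a median of 0.30 against 0.004 over all genes, of which 50.6% were positive. At an unadjusted p under 0.05, 12 were higher and 2 lower, against 10.6% and 11.4% of all genes, and groups did not overlap for 12 on the high side and 1 on the low side, against 12.9% and 13.7%. The 8 other transcription factors and coregulators, Npas4 among them, were all positive (median 0.72), Maff on only 6 to 19 counts per library. Fos footprints were at 8.35, 34.5 and 16.1 CPM in B6N and 47.4, 49.99 and 26.9 in knockouts, which overlapped (log2 1.09 ± 0.59, adjusted p = 0.37). Egr1 was at 102, 198 and 154 and at 297, 269 and 244 (log2 0.84 ± 0.24, adjusted p = 0.11), and Junb at 54.1, 95.5 and 73.0 and at 112, 136 and 102 (0.65 ± 0.20, adjusted p = 0.098), without overlap. B6N footprint library 1 was the lowest of the 6 for Fos, Fosb, Junb, Egr1, Egr2, Nr4a1, Npas4, Dusp1 and Arc. Without it the median was 0.22. Bdnf footprints overlapped between the groups, at 55.8, 50.6 and 50.4 and at 69.2, 58.4 and 55.6 (log2 0.23 ± 0.11, adjusted p = 0.24).

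Cell type markers differed in both directions in the footprint comparison. The 12 striatal markers summed to 168 to 199 CPM in B6N footprints and 256 to 475 in knockouts, with 7 called higher, among them Drd1 (3.52-fold), whereas in hippocampus RNA they summed to 198 to 216 and 197 to 220. The 14 endothelial markers were all higher in knockout footprints (419 to 741 against 701 to 869 CPM, 0 called), as were 12 of 13 mural and meningeal markers (407 to 544 against 563 to 744, 0 called). Choroid plexus markers summed to 7885 to 16980 CPM in B6N footprints and 11230 to 26230 in knockouts, with all 12 higher and 0 called. In the other direction, 4 of 12 excitatory neuron markers fell (6353 to 7019 CPM in B6N against 5705 to 5971 in knockouts), as did 4 of 12 interneuron markers (2208 to 2280 against 1825 to 1968). Of 10 microglial markers 4 fell (665 to 789 against 592 to 613), of 10 astrocyte markers 4 fell (5393 to 6262 against 4929 to 5242), and of 10 oligodendrocyte markers 2 fell (3871 to 4918 against 3813 to 4583). The sums overlapped between the groups for the endothelial, choroid plexus and oligodendrocyte lists and not for the others named here. No marker of these lists was at 0 in a whole group. Their part in the footprint results was not tested.

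Footprints per RNA, the log2 ratio of scaled counts, lay above the all-gene median for most of these genes already in B6N hippocampus. The ratio was not corrected for the length of transcript or coding region, and the assays differ in how libraries are made. Its ranking of genes is therefore not a ranking of translation. The median was 0.47 over members and -0.10 over 13151 genes, and 28 of 38 members were above the all-gene median. Jund stood highest at 1.67 ± 0.12 (SE, n = 3 and 3), above 97.6% of genes, followed by Fos at 1.52 ± 0.65 and Gadd45g at 1.42 ± 0.14. Btg2 was lowest at -1.35 ± 0.14, above 12.3% of genes, and Homer1 was at -0.71 ± 0.17. Tested as the interaction of assay and genotype, no gene of 15202 and so no member passed (0%), with 9 members higher and 1 lower at an unadjusted p under 0.05 (6.22% and 8.65% of all genes) and 1 called by DESeq2, Apold1 (3.61% of all genes). The median difference was 0.33, with 28 members positive, where 49.3% of all genes were. The largest were Egr2 at 1.96 ± 0.80 (adjusted p = 0.28) and Apold1 at 1.63 ± 0.40 (0.10), and Bdnf was at -0.28 ± 0.17 (0.48). These SEs take RNA and footprints as independent, although deviations of same-numbered libraries correlated at 0.114 to 0.175 in B6N, against -0.17 to 0.139 in knockouts. For Fos, Fosb, Junb, Egr1, Egr2, Nr4a1, Npas4, Dusp1 and Arc, library 1 was the highest in B6N RNA and the lowest in B6N footprints. For Bdnf, Ptgs2 and Apold1 it was the highest in both. The numbers do not show whether RNA and footprints came from the same mice.

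**Figure D5:**
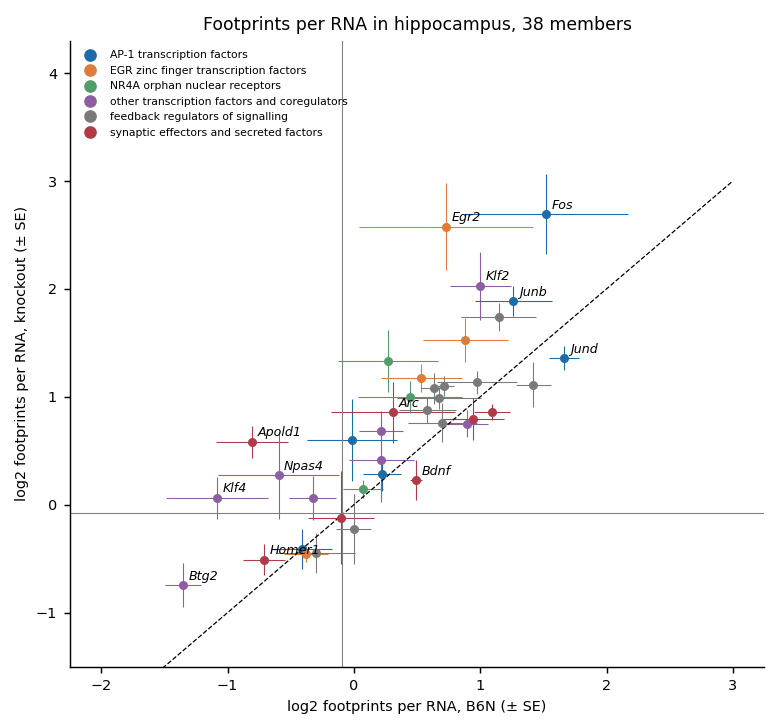
Log2 footprints per RNA in B6N (horizontal axis) and knockout (vertical axis) hippocampus for the 38 members, with SE from 3 RNA and 3 footprint libraries each, coloured by role; grey lines mark the medians of all genes and the dashed line equal values. Most members lie right of and above the grey lines (28 and 31 of 38). Most also lie above the dashed line, Egr2, Fos, Klf2 and Apold1 among them, and no member passed the edgeR interaction test.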

How the data were processed

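Forebrain files were deposited by the authors as estimated counts, effective lengths and TPM per transcript, and hippocampus files as whole counts per gene, in RNA and footprints. Build mm10 and the tools Bowtie2 2.2.3, HISAT2 2.1.0, kallisto 0.42.4 and featureCounts are listed in the submitters' processing notes, with no file assigned to any. Estimated counts were summed per gene and rounded. Poly(A) libraries do not mark strand, per the labels' kit, so antisense reads there cannot be told apart. CPM used TMM-scaled library sizes.

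Tests used edgeR 4.0.16 (R 4.3.3), filterByExpr at a minimum count of 10, two-sided quasi-likelihood F tests with robust fitting, p-values adjusted by Benjamini and Hochberg's method across every gene tested, and a threshold of 0.05, in 11 comparisons. The 16 batch 1 forebrain libraries were fitted together. B6J knockouts were tested among all 21, with the pair of libraries of B6J Tg mouse 4 setting the batch difference. SE is the log2 difference over the square root of F. On simulated data with 200 genes changed 2-fold, 88% were recovered for B6N knockout forebrain, over 24799 genes, and 91.3% of 196 for footprints. Every simulated gene had the same spread, close to the all-gene median (7.87% in forebrain and 12.9% in footprints). Fos, for comparison, was at 17.9% and 49.7%, so these shares do not apply to the more variable members. Co-variation with Fos used log2(CPM + 0.5) less group means and 100000 permutations within groups, and is read at an unadjusted p against all genes, in place of an adjustment over the members alone. The closest pair among 46 same-group library pairs differed by a chi-square of 2.92 per degree of freedom.

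Alternatives were DESeq2 1.42.0, RLE scaling, no low-count filter, the replicate number as a block, transcript lengths, fewer samples, no batch term and each library left out. A male-only fit and a block pairing RNA with footprints within genotype were chosen after seeing the data. Tests of the short Homer1 and Fosb forms were not run, because the transcript names give no coding regions. The members and lists were chosen with earlier results of these data known. Members set to be named were those called in a comparison and Fos, Fosb, Junb, Egr1, Arc, Npas4, Nr4a1, Homer1, Bdnf and Dusp1. To these were added 3 at each end of the rankings by spread and by correlation with Fos. Values of every library are printed for only some of them, and Nr4a1, Junb, Fosb and Homer1 in forebrain are given in part. Others named were chosen after their values were seen.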

Additional observations from a re-analysis of the deposited data

Results flagged for a closer look

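Arc in B6J Tg mouse 2 stood apart from its group, at 270 CPM where the other 3 mice were at 167 to 174. It was the only such sample among 80 sets of 4 mice (16 named members in 5 groups), where chance flags about 1 in 20. Without that mouse the Arc difference of B6J against B6J Tg turned from -0.10 to 0.095 on the log2 scale, neither past the threshold.

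Klf4 and Apold1 had log2 differences of opposite sign in forebrain RNA and hippocampus footprints of B6N knockouts, with every knockout below every B6N sample in the former and above in the latter. In footprints the log2 differences were 1.35 for Klf4 and 1.64 for Apold1, and in forebrain RNA they were -0.80 and -0.28. The difference between the tissues and assays was not tested.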

How the results depend on the processing

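Numbers are of members called, with the edgeR count and then the share of all genes called by the alternative in parentheses. DESeq2 called 4 in B6N knockout against B6N (2, 3.63%), 2 in B6J against B6J Tg (0, 1.75%), 12 in B6J against B6N (3, 3.79%), 2 in hippocampus RNA (0, 0.808%), 7 in footprints (3, 9.56%) and 1 in footprints per RNA (0, 3.61%). In B6J against B6N the transcript length offset called 1, Fos, in place of the 3 (0.569%), and a fit of these groups alone called 10 (4.12%). Without a batch term, 23, 14 and 2 were called for B6J knockout against B6J Tg, against B6J and against the B6N knockout effect (0 each; 14.3%, 13% and 2.58%). With no low-count filter, 1 was called in hippocampus RNA (0, 0.381%) and 5 in footprints (3, 5.3%). By the correlation check over all genes, same-numbered samples were not paired in any comparison of genotypes. RNA and footprints passed its limit of 0.1 in B6N (0.114 to 0.175) and not in knockouts. Passing it does not show that they came from the same mice. With the replicate block 6 were called in footprints (3, 4.76%) and no other count moved by over 1.5 times. A block within genotype, added after seeing the data, called 0 in footprints per RNA (0, 0.0329%). Leaving out 1 library gave 2 to 7 in B6N knockout against B6N, 0 to 1 in B6J against B6J Tg, 1 to 8 in B6J against B6N, 0 to 1 in B6J knockout against B6J Tg, 0 to 5 in footprints and 0 to 1 in footprints per RNA. The cause was not tested. For Bdnf and Klf4 in B6N knockout forebrain, the call held under every alternative run.

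Signs turned for 25 single-gene values, in 12 log2 differences of -0.216 to 0.034, none of which passed. Fosb in B6J against B6N (0.005) was -0.004 with no filter, Homer1 in B6J knockout against B6J Tg 0.08 without a batch term, Fosb in B6J knockout against B6J 0.057 among males, and Arc in hippocampus RNA 0.015 with the replicate block. With 1 library left out, the lowest and highest values were -0.2 and 0.095 for Arc in B6J against B6J Tg, -0.046 and 0.054 for Fosb in B6J against B6N, -0.289 and 0.06 for Npas4 in B6J Tg against B6N, and -0.17 and 0.006 for Fosb and -0.33 and 0.015 for Npas4 in B6J knockout against B6J. In hippocampus RNA they were -0.218 and 0.254 for Arc, -0.329 and 0.203 for Npas4, -0.174 and 0.04 for Homer1, -0.267 and 0.437 for Fos, -0.08 and 0.15 for Fosb and -0.135 and 0.19 for Junb. The 18 members that correlated with Fos numbered 14 by Spearman, 20 with the replicate block and 14 to 19 with 1 mouse left out. B6J Tg mouse 4 could not be left out of the batch fit. Depth limits Maff, Apold1, Egr2 and Klf4 in footprints, with 6 to 10 counts in the lowest library.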
